A study of Mus musculus with 6 samples.

Results

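The IGF1 axis examined here comprises the growth factor Igf1, its receptor Igf1r, the secreted binding proteins Igfbp2 to Igfbp7, and the metalloproteases Pappa and Pappa2. These 10 genes were taken by symbol from the 46983 genes of the deposited table, and all 10 had values high enough to be tested. Expression was measured by RNA-seq in aortic valves from wild-type C57BL/6J mice at 2 ages, postnatal day 2 (PND2) and 4 months. Each age had 3 libraries, which the sample descriptions call biological replicates, and each library pooled valves from 5 to 6 pups or adult mice. Values are means ± SD over the 3 libraries of an age in RPKM, reads scaled by exonic length and by library total. The length covers all listed exons of a gene, used or not, so levels of different genes compare only roughly. At PND2, for example, Igf1 had a mean of 36.7 RPKM as a gene and 110 RPKM at its second inner coding exon. Library totals ranged from 29260736 to 38994657 at PND2 and from 23810507 to 37350916 at 4 months. These totals were inferred for each library, by taking its smallest nonzero product of exon RPKM and exon length as a single read. The sources used here do not say if single reads or pairs make up the totals. The reads summed over genes came to 2.31 to 2.36 times the totals, so that a read can count at more than 1 gene. Because pools of animals were sequenced, p-values measure the spread between pools.

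IGF1 is a secreted peptide that signals through the receptor tyrosine kinase IGF1R to promote growth and survival, mainly through PI3K and AKT. Outside the cell most of it is held by IGF binding proteins, which lengthen its life in the circulation and can either block or aid its access to the receptor. Proteases such as PAPP-A and PAPP-A2 cut certain binding proteins and so release the ligand. In heart valves, growth after birth is followed by maintenance of a thin, layered leaflet in the adult.

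At 4 months the ligand and its receptor were lower than at PND2, and 4 of the 6 binding proteins were higher. Igf1 fell 1.77-fold and Igf1r 2.16-fold by the ratio of means. Igfbp4, Igfbp5, Igfbp6 and Igfbp7 rose between 2.09-fold and 3.94-fold, while Igfbp2 fell 5.62-fold. Igfbp3, Pappa and Pappa2 did not pass the test. In all, 7 of the 10 genes passed an adjusted p of 0.05 in limma on log2(RPKM + 0.1), against 35.8% of the 25903 genes tested. By direction, 4 of 10 were higher, against 14.7% of all genes tested, and 3 of 10 were lower, against 21.1%. With a fold change over 2 required as well, 6 of the 10 passed, against 17.2% of all genes. The libraries of the ages did not overlap for 8 of the 10 genes, which was also the case for 50% of all genes tested. The median log2 change was 0.08 over the 10 genes and -0.14 over all genes tested. Scaling the libraries to equal medians moved the median over all genes from -0.14 to -0.02 and the share of calls that were higher at 4 months from 41.1% to 52.3%, and none of the 10 genes changed direction.

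**Figure D1:**
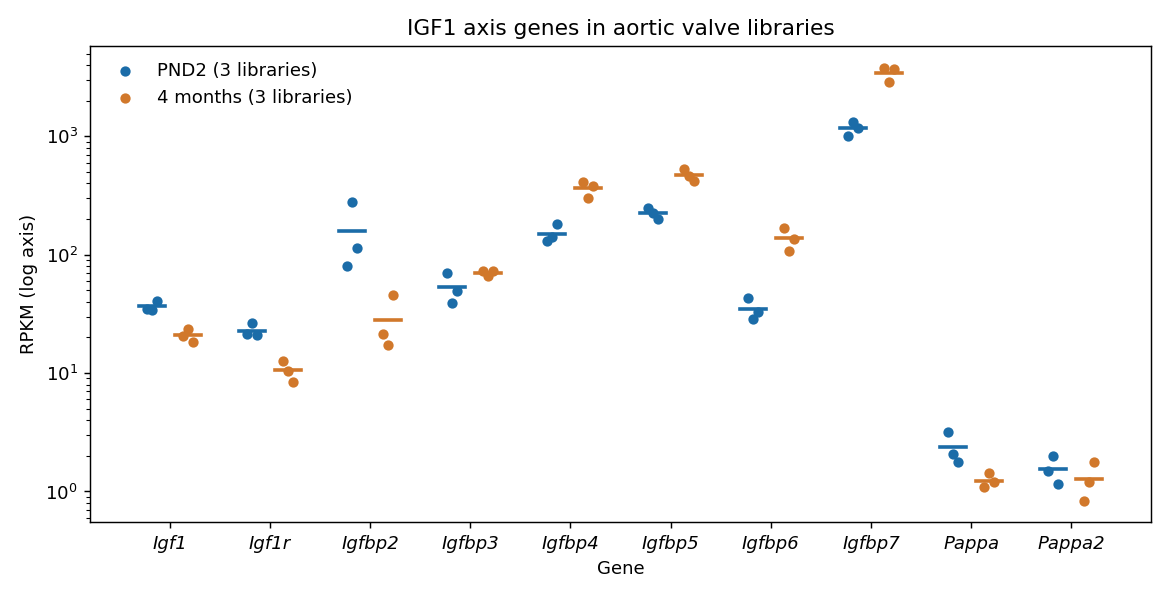
RPKM of each IGF1 axis gene (log axis) in the 3 PND2 libraries (blue) and the 3 libraries of 4 months (orange), with points for libraries and lines for means. Igfbp7 is highest at both ages, at 1004 to 1308 and 2858 to 3803 RPKM, and Igfbp2 has the widest spread at PND2 on this log axis, from 79.6 to 279 RPKM.

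**Figure D2:**
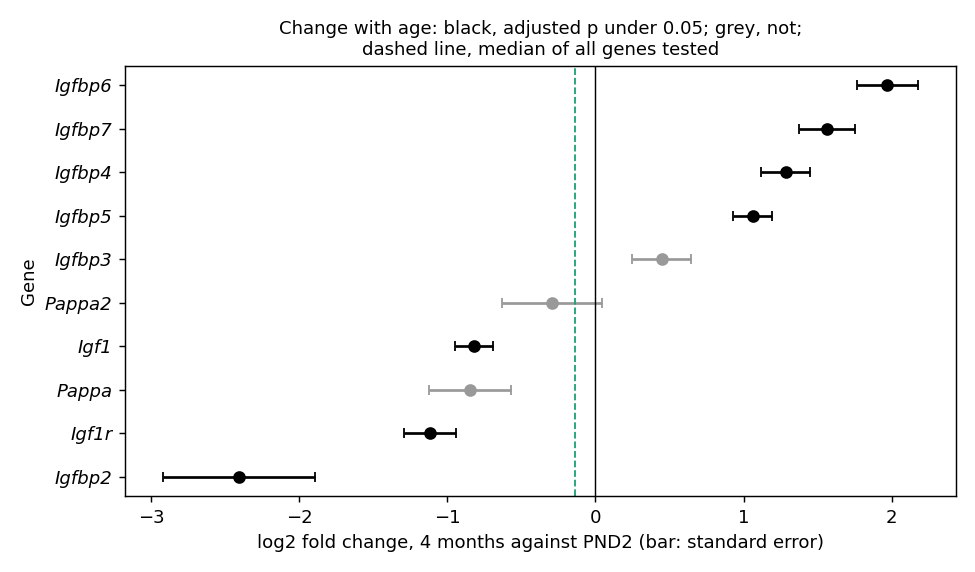
The log2 change of each gene on the log2(RPKM + 0.1) scale, 4 months against PND2, with bars for the standard error from limma. Black points passed an adjusted p of 0.05, grey points did not, and the dashed line is the median of all genes tested, -0.14. Values run from -2.41 for Igfbp2 to 1.97 for Igfbp6.

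The ligand gene Igf1 (chr10:87858265-87937042, plus strand, mm10) had 34.7, 34.4 and 41.0 RPKM at PND2 and 20.6, 23.5 and 18.2 RPKM at 4 months. Every PND2 library lay above every library of 4 months. The means were 36.7 ± 3.72 and 20.8 ± 2.62 RPKM (n = 3), a log2 change of -0.82 (SE, standard error, 0.127, adjusted p = 0.00284 by limma). Leaving out each library in turn kept the change between -0.91 and -0.73. Without the last exon, which is described next, the log2 change was -0.41 and did not pass (adjusted p = 0.0990 by limma). That fit also read the other exons differently and tested 18792 genes in place of 25903. The part of the last exon alone in this difference was not tested. In whole tissue, fewer cells that express a gene and less RNA per cell cannot be told apart. Liver is the main source of circulating IGF1 in the adult. The summed level of 5 hepatocyte markers was 0.938 to 1.20 RPKM at PND2 and 0.218 to 0.773 RPKM at 4 months. Of the 4 testable markers, 3 were lower in the adult, against 21.1% of all genes tested. These 3, Alb, Apoa1 and Ttr, had only 10 to 25 reads per library at PND2 and 0 to 6 at 4 months. At such counts the fitted changes depend on the 0.1 added to each RPKM.

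Of the 15 tested exons of Igf1, 3 passed on their own level, against 25.1% of all exons tested. They were the last exon and a pair of shorter versions of the first leader. Listed exons of a gene can be nested or repeated intervals of the same reads, here and in the exon counts of the other genes. Transcripts of the gene begin at alternative leader exons, and the first leader (chr10:87859068-87859412) had 49.3, 58.1 and 70.6 RPKM at PND2 and 37.1, 47.2 and 40.1 RPKM at 4 months. The ages lay apart there, but the log2 change of -0.51 did not pass (adjusted p = 0.0754 by limma), while its shorter versions did (adjusted p = 0.0483 and 0.0308 by limma). The second leader (chr10:87860030-87861385), which is used in liver of adult animals, stood at 0.728 ± 0.361 and 0.776 ± 0.267 RPKM. As a share of the first leader, over these whole intervals, it came to 1.22% ± 0.515 at PND2 and 1.90% ± 0.761 at 4 months. The libraries overlapped (exact permutation test, 2-sided, n = 3 against 3, p = 0.4). This share depends on the intervals taken. The 57-base version of the second leader had means of 3.38 and 4.785 RPKM, on a mean of 7.5 reads per library. The 82-base version of the first leader had 116 and 77.7 RPKM. A share by these shorter versions was not tested. The second inner coding exon (chr10:87913619-87913800) had 82.4, 114 and 133 RPKM at PND2 and 89.9, 79.2 and 80.5 RPKM at 4 months. Its ages overlapped, and its log2 change of -0.37 did not pass (adjusted p = 0.177 by limma). The long last exon (chr10:87930675-87937042, 6368 bases, mostly 3′ untranslated) had 46.7, 44.6 and 52.9 RPKM at PND2 and 25.2, 29.4 and 22.1 RPKM at 4 months. It fell 1.88-fold, a log2 change of -0.91 (adjusted p = 0.00739 by limma). In its distal 5241 bases (chr10:87931802-87937042) the mean went from 48.8 ± 4.22 to 24.5 ± 3.49 RPKM, and the ages did not overlap. Set against the second inner coding exon, this distal stretch stood at 0.577, 0.399 and 0.402 at PND2 and 0.273, 0.354 and 0.261 at 4 months. Each PND2 ratio exceeded each ratio of 4 months, and the exact permutation p was 0.1, the smallest that 3 against 3 allows. In the test of exon use, which compares an exon with the other exons of its gene, the last exon did not pass (diffSplice adjusted p = 0.190).

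**Figure D3:**
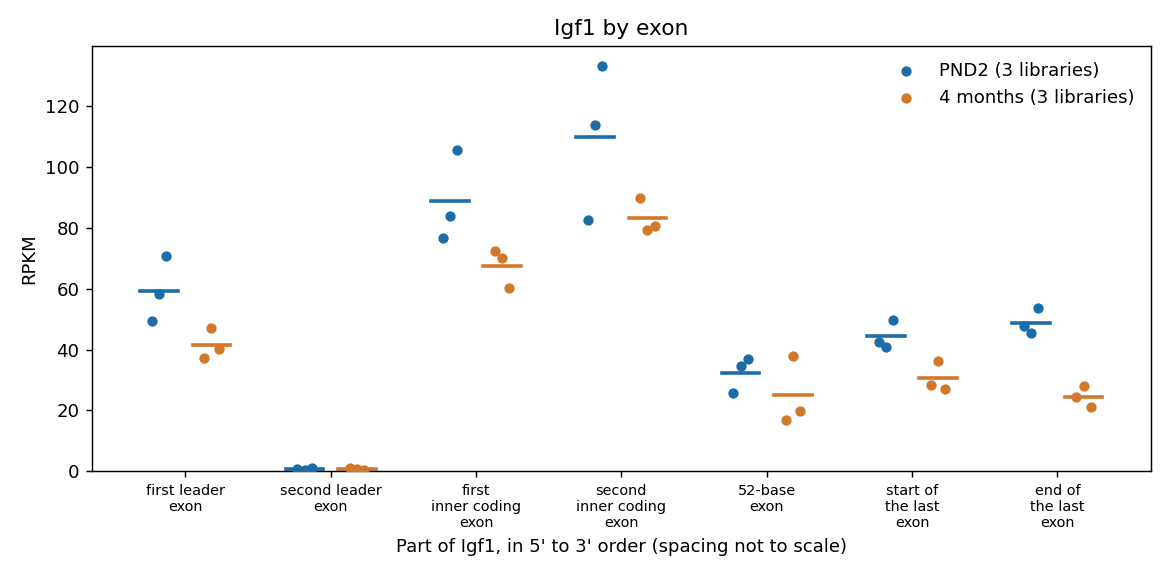
RPKM of successive parts of Igf1 in the 3 PND2 libraries (blue) and the 3 libraries of 4 months (orange), with lines for means. The ages overlap at the second inner coding exon, at 82.4 to 133 and 79.2 to 89.9 RPKM, and lie apart at the end of the last exon, with means of 48.8 and 24.5 RPKM.

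A 52-base exon of Igf1 (chr10:87915298-87915349) is either included or skipped, which shifts the reading frame and gives different carboxy-terminal E peptides of the IGF1 precursor. The sequences below, shown because they set apart the 2 forms, run 5′ to 3′ on the plus strand of mm10, with the 52-base exon in capitals. Both start with the last 30 bases of the exon before it. They end with the last coding base of the next exon before the stop, after 23 coding bases where the exon is included and 57 where it is skipped.
Igf1 with the 52-base exon: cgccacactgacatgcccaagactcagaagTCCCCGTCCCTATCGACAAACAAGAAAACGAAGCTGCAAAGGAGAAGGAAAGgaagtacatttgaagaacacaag
Igf1 without it: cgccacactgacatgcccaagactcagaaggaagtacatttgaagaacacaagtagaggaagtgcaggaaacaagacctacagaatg
Reads on this exon numbered 52, 55 and 56 at PND2 and 33, 47 and 30 at 4 months. Its RPKM was 31.1, 30.5 and 27.7% of that of the exon before it at PND2 and 18.9, 48.0 and 24.8% at 4 months. The adult libraries lay on both sides of the PND2 libraries (exact permutation test, 2-sided, n = 3 against 3, p = 1). At this depth no difference in inclusion was detectable.

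The receptor gene Igf1r (chr7:67952859-68226780, plus strand) had 21.2, 26.3 and 20.9 RPKM at PND2 and 12.7, 10.5 and 8.45 RPKM at 4 months. The ages did not overlap. Its mean went from 22.8 ± 3.02 to 10.5 ± 2.11 RPKM, a log2 change of -1.12 (SE 0.173, adjusted p = 0.00285 by limma). With an unequal-variance test the adjusted p was 0.0538. All 21 of its exons were lower at 4 months, and 15 of them passed on their own level, against 25.1% of all exons tested. The ratio of Igf1 to Igf1r was 1.64 ± 0.326 at PND2 and 2.01 ± 0.334 at 4 months, with overlapping libraries (exact permutation test, 2-sided, n = 3 against 3, p = 0.3). Igf1r was counted over 4489 listed exonic bases, and transcript sequence outside them does not enter its level, which bears on this ratio and on its place among the other genes. On whole-gene values, no difference between the falls of ligand and receptor was detected within this spread. This ratio depends on the last exon of Igf1. Without that exon the log2 change of Igf1 was -0.41. Its second inner coding exon was 1.32-fold lower by means, with overlapping ages, against 2.16-fold for Igf1r. A ratio by that exon was not tested.

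Over the 6 libraries, the genes whose profiles lay nearest to Igf1 among 11182 genes were Cep68, Knop1 and Lpcat3, at distances of 0.101, 0.107 and 0.108 on the centred log2 scale. For Igf1r they were Ppp1r3d, Krba1 and Degs2, at 0.177, 0.197 and 0.232. These distances are a description, over libraries that fall into 2 age groups.

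Among the binding proteins, IGFBP2 is a high-affinity form that is abundant in the fetus. Igfbp2 (chr1:72824503-72852474, plus strand) had 79.6, 279 and 113 RPKM at PND2 and 21.5, 17.1 and 45.3 RPKM at 4 months. PND2 replicate 2 was highest at its age and replicate 3 of 4 months at its own, yet the ages did not overlap. The means were 157 ± 107 and 28.0 ± 15.2 RPKM, a log2 change of -2.41 (SE 0.513, adjusted p = 0.0104 by limma). Without PND2 replicate 2 the log2 change was -1.89, and it still passed, whereas an unequal-variance test gave an adjusted p of 0.0959. Of the valve interstitial markers listed, Sox9, Col1a1, Col1a2, Postn and Vcan were highest at each age in these same libraries. Vim, Col3a1, Dcn, Lum and Pdgfra were not. Sox9, a transcription factor of cartilage and valve cells, had 15.2 RPKM in PND2 replicate 2 and 14.6 RPKM in replicate 3 of 4 months. The order of the remaining libraries of each age differed between Sox9 and Igfbp2. The part of these markers in the spread of Igfbp2 was not tested. All 9 tested exons of Igfbp2, repeated intervals included, passed in the same direction, against 25.1% of all exons tested.

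IGFBP3 carries most circulating IGF in adult blood. Igfbp3 (chr11:7206086-7213923, minus strand) had 70.3, 39.4 and 49.3 RPKM at PND2 and 72.5, 66.2 and 72.3 RPKM at 4 months. PND2 replicate 1 lay among the adult libraries, and the log2 change of 0.45 did not pass (SE 0.198, adjusted p = 0.121 by limma). Without PND2 replicate 1 it was 0.67 and passed (adjusted p = 0.00992 by limma), so this library decided the call.

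The 4 binding proteins that rose differ in what they are known to do. IGFBP4 mostly restrains IGF action and is a substrate of PAPP-A, IGFBP5 binds extracellular matrix, IGFBP6 prefers IGF2 over IGF1, and IGFBP7 binds IGFs only weakly and is a product of vascular and stromal cells. Igfbp4 (chr11:99041244-99054392, plus strand) had 130, 140 and 181 RPKM at PND2 and 413, 302 and 382 RPKM at 4 months. All adult libraries were higher than all PND2 libraries, and the log2 change was 1.28 (SE 0.167, adjusted p = 0.00143 by limma). Igfbp5 (chr1:72857932-72874884, minus strand) lies next to Igfbp2 on chromosome 1, in the opposite orientation, and changed in the opposite direction. It had 246, 226 and 198 RPKM at PND2 and 525, 460 and 415 RPKM at 4 months. Every adult library was above the PND2 libraries, with a log2 change of 1.06 (SE 0.130, adjusted p = 0.00113 by limma).

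Igfbp6 (chr15:102144362-102149511, plus strand) had the largest rise of the 6 binding proteins, from 43.0, 28.6 and 32.9 RPKM at PND2 to 169, 107 and 136 RPKM at 4 months. The lowest adult library was well above the highest PND2 library. The means were 34.8 ± 7.41 and 137 ± 31.1 RPKM, a log2 change of 1.97 (SE 0.205, adjusted p = 5.56e-04 by limma). Igfbp7 (chr5:77349240-77408041, minus strand) had 1004, 1308 and 1185 RPKM at PND2 and 3803, 2858 and 3699 RPKM at 4 months. The ages were far apart, with a log2 change of 1.56 (SE 0.189, adjusted p = 0.00104 by limma). Exons of Igfbp7 overlap Polr2b on the other strand, a polymerase subunit gene with means of 40.4 and 52.2 RPKM. Leaving out each library in turn kept the log2 changes between 1.19 and 1.42 for Igfbp4, 0.97 and 1.14 for Igfbp5, 1.81 and 2.14 for Igfbp6, and 1.46 and 1.70 for Igfbp7. Each tested exon of these 4 genes was higher at 4 months, and on their own level 12 of 14 passed for Igfbp4, 10 of 10 for Igfbp5, 4 of 4 for Igfbp6 and 8 of 8 for Igfbp7, against 25.1% of all exons tested. Some of these exons of Igfbp4 and Igfbp5 are repeated or nested intervals.

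Markers of other cell types moved with age alongside these genes. Of all genes tested, 14.7% were called higher at 4 months and 21.1% lower. The summed level of 6 smooth muscle markers was 7382 to 8549 RPKM at PND2 and 16640 to 27580 RPKM at 4 months, and 5 of the 6 rose. That of 8 macrophage markers was 320 to 368 and 1042 to 1132 RPKM, with 7 risen. For 8 adipocyte markers it was 70.1 to 154 and 338 to 1434 RPKM, with 6 risen. Cidec and Lep were listed at 0 in all PND2 libraries. Fabp4 had 147, 63.7 and 77.9 RPKM at PND2, which was most of the sum at that age, and did not pass (adjusted p = 0.953 by limma). Pparg did not pass either (adjusted p = 0.0525 by limma). Replicate 2 of 4 months had the lowest Igfbp4, Igfbp6 and Igfbp7 of its age. Its sums were the highest of its age for adipocyte, cardiomyocyte and endothelial markers. They were the lowest for smooth muscle, valve interstitial, macrophage, hepatocyte and Schwann cell markers. The libraries of 4 months had the same order in these genes as in the smooth muscle, macrophage and Schwann cell sums. All 8 endothelial markers fell, from sums of 486 to 675 RPKM to 259 to 274 RPKM, and 4 of 8 cardiomyocyte markers fell, from 15800 to 17120 RPKM to 5827 to 9549 RPKM. Of 10 valve interstitial markers, all 10 passed the filter, with 2 risen and 5 fallen, and their sum was 6619 to 7304 and 8080 to 10190 RPKM. Of 5 Schwann cell markers 2 rose, with sums of 11.3 to 28.7 and 41.2 to 48.8 RPKM. The part of these cell types in the changes of the IGF1 axis genes was not tested.

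Promoters of the 4 binding proteins that rose are given because these genes moved together. Each runs 5′ to 3′ on the strand of its gene, from 250 bases before to 50 after the RefSeq start (GRCm38.p6), with matches to TATAAA or GGGCGG on either strand in capitals. The RefSeq start used for Igfbp6 lies before the gene start that the deposited table gives.
Igfbp4 chr11:99040994-99041293, plus strand: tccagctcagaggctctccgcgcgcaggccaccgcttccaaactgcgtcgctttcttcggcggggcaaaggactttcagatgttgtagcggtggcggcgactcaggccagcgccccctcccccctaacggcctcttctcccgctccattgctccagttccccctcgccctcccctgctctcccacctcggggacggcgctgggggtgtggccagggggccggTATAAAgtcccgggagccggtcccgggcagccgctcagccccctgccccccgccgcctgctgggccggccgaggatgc
Igfbp5 chr1:72874816-72875115, minus strand: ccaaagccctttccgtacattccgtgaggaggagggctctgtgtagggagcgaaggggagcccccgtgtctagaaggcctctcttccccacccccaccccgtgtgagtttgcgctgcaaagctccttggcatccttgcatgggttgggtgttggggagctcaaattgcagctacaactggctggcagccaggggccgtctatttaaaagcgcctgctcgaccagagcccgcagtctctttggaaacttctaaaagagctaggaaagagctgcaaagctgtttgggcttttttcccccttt
Igfbp6 chr15:102143936-102144235, plus strand: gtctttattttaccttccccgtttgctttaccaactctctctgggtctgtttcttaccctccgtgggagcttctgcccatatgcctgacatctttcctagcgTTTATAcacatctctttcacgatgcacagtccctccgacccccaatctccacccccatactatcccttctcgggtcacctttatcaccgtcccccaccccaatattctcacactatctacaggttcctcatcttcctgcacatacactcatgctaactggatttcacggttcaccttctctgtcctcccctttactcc
Igfbp7 chr5:77407996-77408295, minus strand: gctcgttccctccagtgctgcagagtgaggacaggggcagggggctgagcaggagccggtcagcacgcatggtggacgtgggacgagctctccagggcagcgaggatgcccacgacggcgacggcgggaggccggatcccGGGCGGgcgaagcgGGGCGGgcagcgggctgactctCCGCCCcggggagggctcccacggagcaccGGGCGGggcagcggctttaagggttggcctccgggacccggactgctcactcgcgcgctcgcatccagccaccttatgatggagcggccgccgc
Igfbp4 held TATAAA and Igfbp7 held several matches to GGGCGG, while Igfbp6 held TATAAA on the reverse strand only and Igfbp5 had neither in this window. The letters TATAAA were found in 2 of 10 promoters of the IGF1 axis and in 13.6% of 32851 promoters, and GGGCGG in 3 of 10 and 35.7%. CCAAT was found in 3 of 10 and 37.4%, and TGTTTAC, a sequence bound by FoxO factors, in 0 of 10 and 3.65%. These 10 promoters cover 9 of the genes, Igfbp2 having a pair of entries and Pappa none. The entry for Igf1 lies in its second leader exon, so the start of the first leader was not searched. Their median GC content was 62.2%, against 52.7% for all promoters.

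Summed over Igfbp2 to Igfbp7, binding protein transcripts came to 1573, 2021 and 1759 RPKM at PND2 and 5005, 3811 and 4750 RPKM at 4 months. The sum was 2.53-fold higher at 4 months and the ages did not overlap (exact permutation test, 2-sided, n = 3 against 3, p = 0.1, the smallest possible). Igfbp7 made up 65.3% ± 1.84 of it at PND2 and 76.3% ± 1.46 at 4 months, again without overlap. The share of Igfbp2 went from 8.43% ± 4.72 to 0.611% ± 0.298, and that of Igfbp3 from 3.07% ± 1.28 to 1.57% ± 0.150, although Igfbp3 itself did not pass. Igfbp6 made up 2.01% ± 0.671 and 3.01% ± 0.318. For these 4 shares the ages did not overlap, and each exact permutation p was 0.1. The shares of Igfbp4 (8.50% ± 1.68 and 8.08% ± 0.169) and Igfbp5 (12.7% ± 2.54 and 10.4% ± 1.67) overlapped between the ages, with exact permutation p-values of 0.7 and 0.4. Shares of a sum are not independent of one another, and Igfbp7 set most of the sum.

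**Figure D4:**
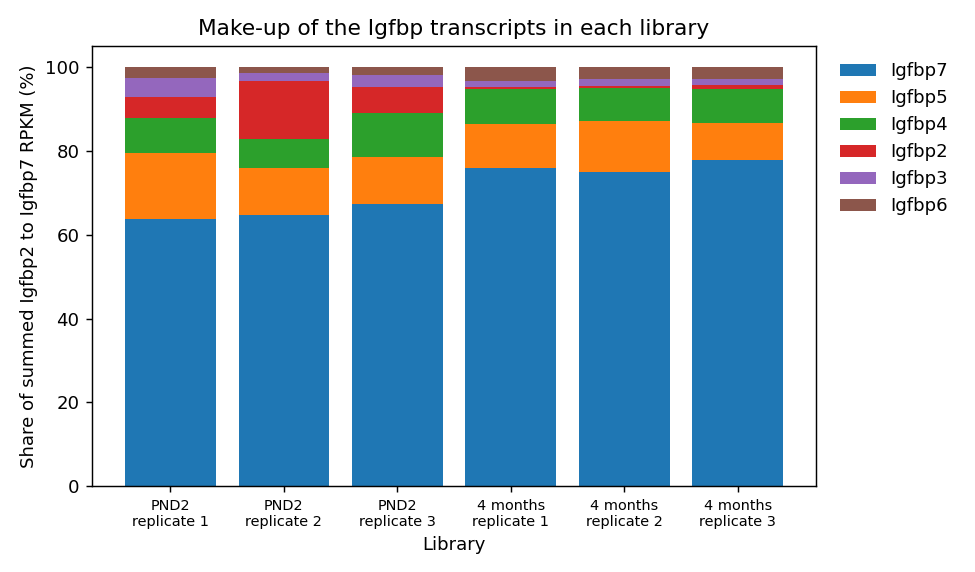
Stacked bars of the percentage that each gene from Igfbp2 to Igfbp7 contributes to their summed RPKM in each of the 6 libraries. Igfbp7 takes 63.8 to 67.4% at PND2 and 75.0 to 77.9% at 4 months, and Igfbp2 takes 5.06 to 13.8% and under 1%, the highest being 0.955%.

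Relative to the summed binding proteins, Igf1 stood at 0.0221, 0.0170 and 0.0233 at PND2 and 0.00411, 0.00616 and 0.00384 at 4 months. The ratio was 4.42-fold lower in the adult, with no overlap (exact permutation test, 2-sided, n = 3 against 3, p = 0.1, the smallest possible). These are transcript ratios and do not measure free ligand. Igfbp7, whose product binds IGFs only weakly, made up 65.3% of the sum at PND2 and 76.3% at 4 months. Igf1 also fell less when its last exon was left out. The ratio without Igfbp7 or without that exon was not tested.

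The proteases were the lowest members at both ages. Pappa (chr4:65124174-65357509, plus strand), whose product cuts IGFBP4 and IGFBP5, had 3.21, 2.08 and 1.78 RPKM at PND2 and 1.08, 1.42 and 1.19 RPKM at 4 months. The ages did not overlap, but the log2 change of -0.85 lay at the edge of the threshold (SE 0.279, adjusted p = 0.0504 by limma). It passed under several other settings, for example with voom on reads recovered from the RPKM values (-0.94, adjusted p = 0.0138), and without its last exon it was -1.35 (adjusted p = 0.0198 by limma). The ratio of Pappa to Igfbp4 plus Igfbp5 was 0.00630 ± 0.00199 at PND2 and 0.00151 ± 0.000358 at 4 months, 4.18-fold lower with no overlap (exact permutation test, 2-sided, n = 3 against 3, p = 0.1). Pappa2 (chr1:158711727-158980490, minus strand), whose product cuts IGFBP3 and IGFBP5, had 1.495, 1.99 and 1.16 RPKM at PND2 and 0.838, 1.21 and 1.76 RPKM at 4 months. Its ages overlapped, and its log2 change of -0.29 did not pass (SE 0.336, adjusted p = 0.540 by limma). Stc1 and Stc2 encode stanniocalcins, secreted inhibitors of these proteases. Stc1 was at 7.41 ± 0.958 and 4.70 ± 1.80 RPKM (adjusted p = 0.102 by limma) and Stc2 at 5.69 ± 2.89 and 6.02 ± 0.529 RPKM (adjusted p = 0.687 by limma), and neither passed.

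Ordered by mean level, Igfbp7 led at both ages, 753-fold above the lowest member at PND2 and 2799-fold at 4 months, and Igfbp5 came next. At PND2, Igfbp5 and Igfbp2 overlapped with their next neighbours in this order, as did Igfbp3 with Igf1, Igf1 with Igfbp6 and Pappa with Pappa2. At 4 months, Igfbp6 had moved above Igfbp3, Igfbp2 and Igf1, and the neighbours that overlapped were Igfbp2 with Igf1 and Pappa2 with Pappa. Across the exons of all 10 genes, 0 passed the test of exon use (diffSplice adjusted p under 0.05), which 0.502% of 271381 exons did, and the lowest adjusted p outside Igf1 was 0.754, for Pappa.

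Partners of the pathway also changed. Of 21 listed IGF system partners, 18 could be tested, with 6 higher, 8 lower and 4 not passing. The share called was 77.8%, against 35.8% of all genes tested. Their median log2 change was -0.34 against -0.14 for all genes. Igf2, the other IGF ligand, fell from 708 ± 71.9 to 16.6 ± 3.51 RPKM, a log2 change of -5.43 (SE 0.170, adjusted p = 1.2e-05 by limma). The ratio of Igf1 to Igf2 was 0.0507, 0.0528 and 0.0520 at PND2 and 1.13, 1.24 and 1.45 at 4 months. By gene RPKM, Igf1 was thus the lower ligand transcript in every PND2 library and the higher one in every adult library (exact permutation test, 2-sided, n = 3 against 3, p = 0.1). Since levels of different genes compare only roughly, adult ratios this near to equal do not settle which ligand transcript was more abundant. This ratio includes the last exon of Igf1, and a ratio without that exon was not tested. Igf2r, the receptor that clears IGF2, fell, with means of 165 ± 16.3 and 39.4 ± 3.46 RPKM (adjusted p = 4.5e-05 by limma). Insr, the insulin receptor, fell from 33.1 ± 3.82 to 24.9 ± 2.85 RPKM, a log2 change of -0.41 that passed narrowly (adjusted p = 0.0425 by limma). The call for Insr held in 7 of 17 alternatives.

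The genes of the RNA-binding proteins Igf2bp1, Igf2bp2 and Igf2bp3 fell, with means of 2.66 and 0.0542, 18.0 and 1.89, and 10.1 and 0.437 RPKM. The adult value of Igf2bp1 rests on 36, 3 and 14 reads. Igfbpl1, a binding protein-like gene, fell from 1.92 to 0.524 RPKM, and Adam12, a metalloprotease that can cut IGF binding proteins, from 1.96 to 0.540 RPKM. Htra3, a secreted serine protease, rose from 35.4 ± 8.24 to 114 ± 8.72 RPKM (adjusted p = 5.34e-04 by limma). Of the docking proteins that carry the signal from the receptor, Irs2 rose from 4.52 ± 0.268 to 11.5 ± 1.24 RPKM (adjusted p = 5.55e-04 by limma), while Irs1 was at 9.03 ± 0.402 and 7.51 ± 0.810 RPKM and did not pass (adjusted p = 0.158 by limma). Igfals, the acid-labile subunit of the circulating IGF complex, was chosen after its values were seen, and had 0, 1 and 3 reads at PND2 and 23, 84 and 38 reads at 4 months (adjusted p = 0.00988 by limma).

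Growth hormone drives Igf1 transcription in many tissues. Of 10 genes of its axis, 2 were higher, 2 lower and 6 did not pass, with a median log2 change of 0.09. The share called, 40%, was near the 35.8% of all genes tested, and 6 of the 10 passed with median scaling and 5 with quantile normalization. The receptor gene Ghr was at 26.1 ± 2.30 and 28.6 ± 7.14 RPKM, with overlapping ages (adjusted p = 0.681 by limma). The feedback inhibitors Cish and Socs2, which STAT5 induces, both fell. Cish was at 14.4 ± 1.62 and 6.20 ± 1.91 RPKM and Socs2 at 20.9 ± 1.35 and 13.2 ± 1.98 RPKM (adjusted p = 0.00474 and 0.00859 by limma). Stat5a rose from 6.04 ± 0.826 to 9.49 ± 1.06 RPKM, and the phosphatase gene Ptpn6 from 4.30 ± 0.480 to 7.77 ± 0.798 RPKM. The call for Stat5a held in 12 of 17 alternatives.

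Downstream of the receptor, 6 of 38 signalling genes were higher, 9 lower and 23 did not pass, and 9 in all passed without PND2 replicate 3. The share called, 39.5%, was near the 35.8% of all genes tested. Among the 9 lower genes is Pdk1 (16.97 ± 1.32 and 10.8 ± 3.46 RPKM, adjusted p = 0.0423 by limma), the symbol of a pyruvate dehydrogenase kinase, a metabolic enzyme, and that call held in 6 of 17 alternatives. The median log2 change of the list was -0.04. Grb10, an adaptor that dampens IGF1R signalling, fell, with means of 179 ± 15.6 and 19.4 ± 2.32 RPKM (adjusted p = 1.57e-05 by limma), whereas its relative Grb14 rose from 10.6 ± 2.30 to 19.3 ± 1.07 RPKM. Eif4ebp1, a translational repressor controlled by mTOR, fell from 145 ± 8.57 to 67.6 ± 4.96 RPKM, and Deptor, an mTOR inhibitor, rose from 2.67 ± 0.314 to 6.04 ± 1.74 RPKM. Akt1 fell from 161 ± 25.7 to 96.6 ± 6.71 RPKM, while the PI3K subunit genes went different ways, Pik3cb rising from 2.81 ± 0.417 to 6.58 ± 0.544 RPKM and Pik3r3 falling from 16.7 ± 0.548 to 10.7 ± 1.70 RPKM. Of the 4 FoxO genes, transcription factors that AKT holds out of the nucleus, 3 rose, against 14.7% of all genes tested. Foxo1 went from 10.9 ± 1.11 to 17.2 ± 0.684 RPKM, Foxo3 from 13.5 ± 0.522 to 21.7 ± 3.02 RPKM and Foxo4 from 19.7 ± 0.639 to 23.9 ± 0.264 RPKM. The call for Foxo4 held in 8 of 17 alternatives. With the last exon of each gene left out, 0 FoxO genes passed.

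**Figure D5:**
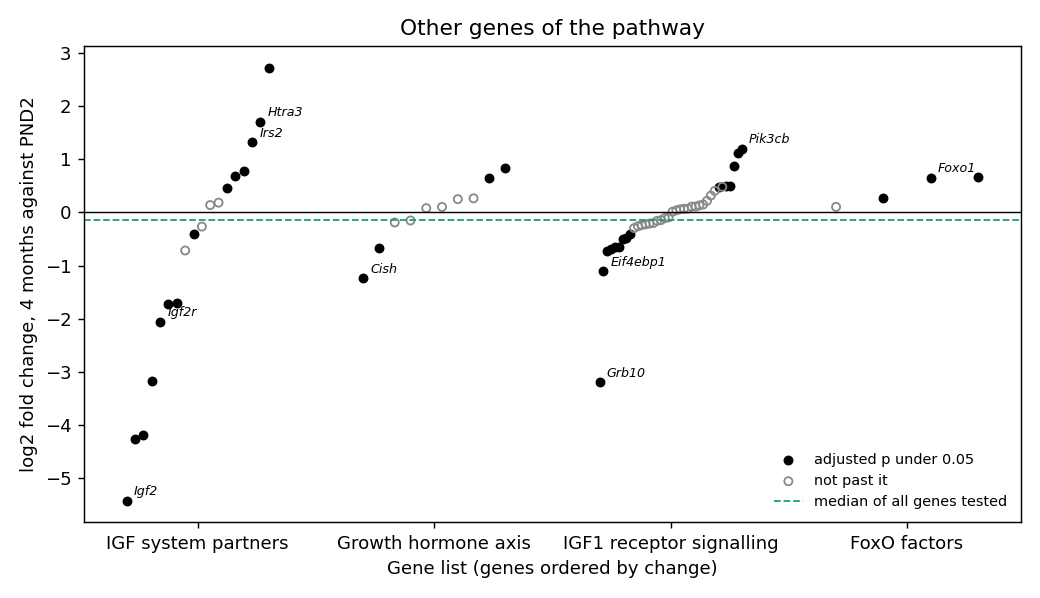
The log2 change of every tested gene in 4 pathway lists, 4 months against PND2, on the log2(RPKM + 0.1) scale, with genes in order of change within a list. Filled points passed an adjusted p of 0.05, open points did not, and the dashed line is the median of all genes, -0.14. Igf2 is lowest, at -5.43, the FoxO genes lie above 0, and the highest point of the first list is Igfals, whose fitted value depends on the added 0.1.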

How the data were processed

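RNA-seq values of 6 aortic valve libraries, 3 per age, were used as deposited. Per the labels and the study's methods, the authors made stranded mRNA libraries from total RNA and aligned paired reads to mm10 with TopHat2 2.1.0. They assigned reads to Ensembl features by easyRNASeq in R 3.2.2, and deposited RPKM for 46983 genes and 448141 exons. RPKM divides reads by exonic length, so long exons weigh most in a gene's value. Whether strand was used in counting is not given in the sources used here, so values of overlapping genes are uncertain. Multiplying RPKM by length and library total gave whole reads for all values within 0.01. Library totals, inferred from the smallest nonzero product of exon RPKM and length in each library, were 23810507 to 38994657. In all, 0 columns were left without a sample.

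Genes with at least 0.1 RPKM in 3 libraries (25903) were compared between ages on the log2(RPKM + 0.1) scale by limma 3.58.1 (R 4.3.3, eBayes, trended prior variance), with 2-sided p-values adjusted over all of them by Benjamini-Hochberg at 0.05. Fold changes on this scale understate changes of low genes. Levels and use of exons with a mean of at least 10 recovered reads were tested with limma and with diffSplice after voom. Exact permutation tests of ratios cannot give p below 0.1. Other software comprised pandas 2.3.3, numpy 2.4.6 and matplotlib 3.10.9 under Python 3.11.15.

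The 10 genes, the pathway and marker lists and the tests were chosen with earlier results of these data known. All 10 genes are named. Of each pathway list, at most the 8 largest changes among called genes with a mean of at least 1 RPKM are named, together with Igf2, Igf2r, Insr, Ghr, Stc1, Stc2, Irs1 and Irs2, and the 3 genes nearest to Igf1 and to Igf1r. Alternatives were pseudocounts of 1 and 0.01, no filter, a filter at 1 RPKM, no trend, median scaling, quantile normalization, voom, an unequal-variance test with a floor at 10 reads, a replicate block, another exon filter and weighting, and each library left out in turn. Fits without the last exon, fits of exon levels, and the ratios within Igf1 and to Igf2 were added after the data were seen. For the fits without the last exon, overlapping exons were grouped and the 3′-most group was dropped. Each other group was read from its exon with the highest mean RPKM. On simulated data for the comparison of ages, 100 changes of each size were planted among 25903 genes. The gene test found 35% of planted changes of 1 and 97% of those of 2 on the log2 scale, with 13 false calls. Far fewer genes were planted than the 35.8% called here, so these shares need not carry over. The exon test found 98.5% of 200 planted exon changes of 1.5, with 5 calls in genes without a planted exon. That size is larger than the change of the last exon of Igf1 relative to its other exons.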

Additional observations from a re-analysis of the deposited data

How the results depend on the processing

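Among the 10 IGF1 axis genes, Igfbp4, Igfbp5, Igfbp6 and Igfbp7 passed in the same direction under all alternatives run. Pappa passed with pseudocounts of 1 (-0.57) and 0.01 (-0.89), with a filter at 1 RPKM or without a trend (-0.85 each), with voom (-0.94) and without the last exon (-1.35). With the unequal-variance test, Igf1r (-1.12, adjusted p = 0.0538) and Igfbp2 (-2.41, adjusted p = 0.0959) did not pass, 3341 genes passed in place of 9273, and the pathway lists held 6 IGF system partners, 1 growth hormone axis gene, 5 signalling genes and 1 FoxO gene. Without the last exon, Igf1 did not pass (-0.41), 6096 of 18792 genes passed, and 0 FoxO genes did. Leaving out single libraries moved Igfbp3 between 0.25 and 0.67, the signalling genes called between 9 and 15, the log2 ratio of the Igfbp4 share between -0.20 and 0.087 (0.087 without PND2 replicate 3, -0.07 with all libraries), Stc2 between -0.042 (without PND2 replicate 2) and 0.567, and Ghr between -0.092 (without replicate 2 of 4 months) and 0.208. With whole reads in place of RPKM, which gives long genes more weight, the log2 ratio was 1.11 for the summed binding proteins (1.34 with RPKM), 0.36 for the Igfbp7 share (0.22) and 0.067 for the Igfbp4 share. Except where a setting tests fewer genes or weighs lengths differently, the cause was not tested. The replicate numbers did not pair the libraries (correlations of deviations 0.04, -0.06 and -0.16), and a fit with the replicate block called 7167 genes and the same number of IGF1 axis genes, 7. Depth limits the 52-base exon of Igf1 (30 to 56 reads per library) and its second leader (15 to 51).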
